A study of Saccharomyces cerevisiae with 70 samples.

Results

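Ribonucleotide reductase makes the deoxyribonucleotides for DNA synthesis, and budding yeast encodes it in 4 genes, RNR1 to RNR4, with SML1 and HUG1 coding for small protein inhibitors. These 6 genes were matched by gene symbol in the annotation of 3 array tables and their probes were averaged. Of them, 5 had a probe in all 3 tables, which held 5577 genes for the second series of arrays and 5553 each for the peroxide I and menadione I arrays. No probe in the annotation used here matched HUG1, which lies next to SML1 in the reference gene order, and it was not analysed here. The second series and peroxide I had 1 probe for each of the 5 genes, and menadione I had 2 for each RNR gene and 1 for SML1.

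The large subunit, Rnr1, carries the active site and the sites that sense nucleotide balance, and Rnr3 is a second large subunit known for its induction by DNA damage. The small subunit is a pair of Rnr2 and Rnr4, of which Rnr2 carries the iron cofactor and its tyrosyl radical. RNR1 is transcribed mainly as cells pass from G1 into S phase, and RNR2, RNR3 and RNR4 are known targets of the Mec1, Rad53 and Dun1 checkpoint kinases, which relieve repression by Rfx1 (also called Crt1) with Tup1 and Cyc8. Sml1 binds Rnr1 and holds the enzyme in check until Dun1 has it degraded, and Hug1 acts on the small subunit.

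The arrays followed synchronised yeast under 2 oxidants, hydrogen peroxide and menadione, a quinone that gives rise to superoxide inside cells. On each array the synchronised culture at 1 time was labelled with Cy5 and an asynchronous reference with Cy3, and values are log2 ratios of culture to reference. The second series used strain DBY8724, sampled after release from G1 arrest, on 1 array design, with no dose in the labels. It holds the course peroxide II, with 17 arrays up to 180 min, and the course menadione II, with 16 up to 140 min. In the first series, each course on a design of its own, peroxide I had 0.24 mM hydrogen peroxide and cells synchronised with alpha factor, with 23 arrays for 21 times up to 275 min. Menadione I had 2 mM menadione and 14 arrays up to 210 min, and its labels do not name the strain or the arrest. The labels name no untreated course and not when the oxidant was added, so the first 21 min of a course served as its baseline, and response and cycle progress cannot be told apart. Each course was 1 culture, so time points stand in for replicates and p-values measure only the spread between them. Each change is a difference of mean log2 ratios with its standard error, and each adjusted p comes from limma after Benjamini-Hochberg adjustment over all genes, with 0.05 as the threshold. A lower number of cells in a cycle stage and less RNA per cell cannot be told apart in such cultures.

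Several arrays stood apart before any comparison. The 14, 21 and 28 min arrays of peroxide II were scanned on another day than its other 14 arrays, and all menadione II arrays on yet another, so for a level the scan day and the agent cannot be told apart. In peroxide II, 26.9%, 24.3% and 15.2% of spots had no value at 42, 14 and 70 min. The gene median of the 42 min array was -0.549, the lowest of all arrays, and centring raised its values by that amount. The repeated arrays at 20 min of peroxide I correlated over genes at only 0.127, with RNR1 at 0.97 on the first and -0.67 on the redo, and those at 63 min at 0.407. On the 0 min arrays, mating pheromone genes had a positive mean log2 ratio in all 4 courses, from 1.13 to 1.75, and histone genes a negative one, from -2.62 to -1.65.

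**Figure D1:**
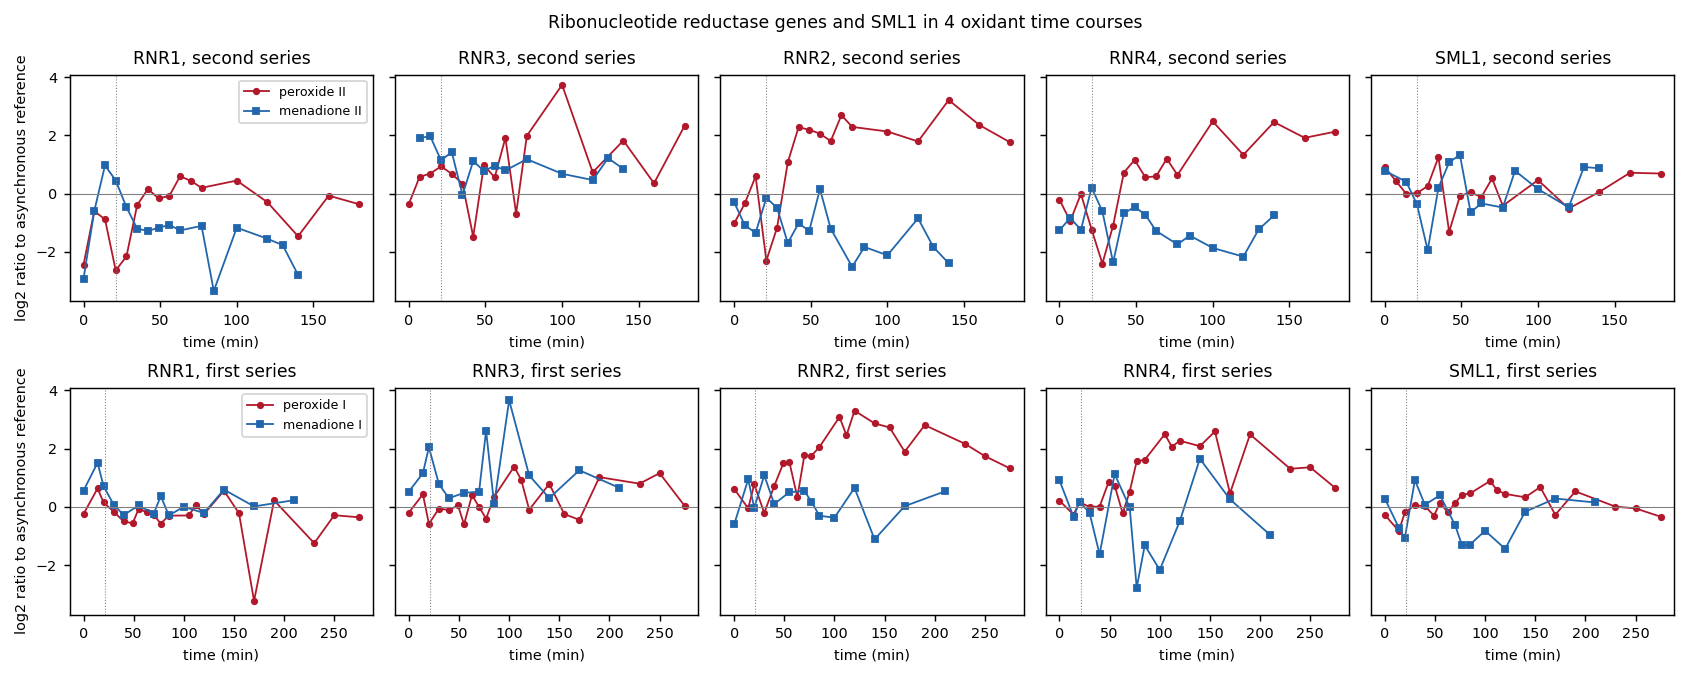
Log2 ratio to the asynchronous reference (vertical axis) against time in min (horizontal axis) for RNR1, RNR3, RNR2, RNR4 and SML1, with the second series above and the first series below. Each point is 1 time, peroxide in red circles and menadione in blue squares, and the dotted line marks 21 min. RNR2 and RNR4 were high late in both peroxide courses, up to 3.21 and 2.48 in peroxide II.

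The small subunit gene RNR2 had the largest rises of the 5 genes in peroxide II. Its log2 ratio was -1.02, -0.33, 0.59 and -2.30 at 0, 7, 14 and 21 min, then -1.17, 1.07, 2.28 and 2.19 at 28, 35, 42 and 49 min. It was 2.06, 1.80, 2.69 and 2.29 at 56, 63, 70 and 77 min, and 2.13, 1.79, 3.21, 2.35 and 1.76 at 100, 120, 140, 160 and 180 min. All 9 arrays from 56 min on lay above all 4 early ones. Against the first 21 min RNR2 rose by 2.97 ± 0.61 at 51 to 90 min (4 arrays against 4, adjusted p = 0.00169) and by 3.01 ± 0.58 after 90 min (5 against 4, adjusted p = 0.00778). The difference at 22 to 50 min, 1.86 ± 0.61, missed the threshold at adjusted p = 0.0747, and it passed without the 14 min or the 28 min array. With the first 15 min as baseline the difference after 90 min was 2.50 and its call was lost (adjusted p = 0.053), while that at 51 to 90 min was 2.46 and kept its call (adjusted p = 0.0118). After 90 min RNR2 ranked 11 of 5520 genes by rise.

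RNR4, its partner in the small subunit, was below 0 on every array up to 35 min and had its 5 highest values from 100 min on. Its log2 ratio was -0.21, -0.94, -0.01 and -1.24 in the first 21 min, then -2.40, -1.10, 0.72 and 1.16 at 28, 35, 42 and 49 min. It was 0.56, 0.59, 1.20 and 0.64 at 56 to 77 min, and 2.48, 1.33, 2.45, 1.91 and 2.13 from 100 min on. The late groups did not overlap the early one. The difference was 0.19 ± 0.54 at 22 to 50 min (adjusted p = 0.886) and 1.35 ± 0.54 at 51 to 90 min (adjusted p = 0.0925). RNR4 rose by 2.66 ± 0.51 after 90 min (5 arrays against 4, adjusted p = 0.00778), which placed it 20 of 5520 genes by rise.

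RNR1, the gene of the main large subunit, rose in peroxide II at 51 to 90 min, but from a baseline that was itself spread widely. Its log2 ratio was -2.44, -0.60, -0.88 and -2.63 in the first 21 min and -2.16, -0.40, 0.16 and -0.17 at 28 to 49 min. It was -0.08, 0.59, 0.44 and 0.20 at 56 to 77 min, and 0.45, -0.30, -1.46, -0.07 and -0.37 later. Only the 51 to 90 min group lay wholly above the early one. RNR1 rose by 1.93 ± 0.64 there (4 arrays against 4, adjusted p = 0.0397), and the differences of 1.00 ± 0.64 before and 1.29 ± 0.60 after missed the threshold (adjusted p = 0.413 and 0.397). The call at 51 to 90 min was lost when any of the 0, 21, 56, 63, 70 or 77 min arrays was left out, with adjusted p up to 0.134, and with the first 15 min as baseline (1.59, adjusted p = 0.13).

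RNR3, for the damage-inducible large subunit, passed no test in peroxide II. Its log2 ratio in peroxide II ran from -0.35 to 0.93 in the first 21 min, from -1.48 to 0.98 at 22 to 50 min, from -0.68 to 1.98 at 51 to 90 min and from 0.35 to 3.73 after 90 min, the last being the 100 min array. All windows overlapped the baseline. The largest difference was 1.33 ± 0.57 after 90 min (adjusted p = 0.342).

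SML1, for the Rnr1 inhibitor, passed no test in peroxide II. Its log2 ratio lay between -0.01 and 0.91 in the first 21 min and between -0.51 and 0.72 after 90 min, and its differences were -0.32, -0.34 and -0.06 in the 3 windows (adjusted p = 0.731 to 0.981). The 95% interval after 90 min, -1.11 to 0.99, leaves room for a change of about 1 in either direction.

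At 51 to 90 min of peroxide II, 2 of the 5 genes rose (RNR1 and RNR2), against 8.99% of all 5519 genes tested. After 90 min, 2 of the 5 rose (RNR2 and RNR4), against 0.507% of 5520. None was called at 22 to 50 min, where 3.94% of genes were, and none fell in any window. These were 4 of the 15 tests of the 5 genes over the 3 windows, against 6.20% of all gene tests. By non-overlap alone, 3 of the 5 genes (RNR1, RNR2 and RNR4) had every array at 51 to 90 min above every early one, which 14.2% of all genes did, and after 90 min RNR2 and RNR4 did, as did 4.13% of genes.

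The scan day of the 14, 21 and 28 min arrays moved with these values. On those 3 arrays RNR2 ran from -2.30 to 0.59 and RNR4 from -2.40 to -0.01, against a median of 2.09 and 0.94 on the other 14. A further fit, chosen after seeing the data, left out those 3 arrays. Its early window for peroxide II then held just the arrays at 0 and 7 min. The menadione II arrays, from another scan day, stayed in this fit and so share in its adjusted p. In it RNR2 rose by 2.89 at 51 to 90 min (adjusted p = 0.00197) and by 2.93 after 90 min (adjusted p = 0.00936). RNR4 rose by 2.64 after 90 min (adjusted p = 0.0177). RNR1 differed by 1.81 at 51 to 90 min and lost its call (adjusted p = 0.147). With scan day as a covariate over all arrays, RNR2 at 51 to 90 min was the only call kept (2.28, adjusted p = 0.0428).

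In menadione II no rise of these genes passed the test. RNR2 had log2 ratios of -0.30, -1.09, -1.34 and -0.14 in the first 21 min, and -0.49, -1.70, -1.02 and -1.27 at 28 to 49 min. It stood at 0.16, -1.20, -2.51 and -1.83 at 56, 63, 77 and 85 min, and at -2.12, -0.85, -1.83 and -2.39 at 100, 120, 130 and 140 min. Only the 56 min array was above 0, and the groups overlapped. The differences from the first 21 min were -0.40 ± 0.61, -0.63 ± 0.61 and -1.08 ± 0.61 (adjusted p = 0.907, 0.622 and 0.381).

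RNR4 in menadione II was -1.25, -0.84, -1.24 and 0.20 in the first 21 min and -0.61, -2.36, -0.68 and -0.46 at 28 to 49 min. It was -0.72, -1.28, -1.74 and -1.44 at 56 to 85 min, and -1.86, -2.16, -1.23 and -0.75 later. Its differences, -0.25, -0.51 and -0.72 with an SE of 0.54 each, did not pass (adjusted p = 0.941, 0.656 and 0.535).

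RNR1 in menadione II was at its lowest of the early window at 0 min and highest at 14 min. Its log2 ratio was -2.92, -0.60, 0.97 and 0.45 in the first 21 min, and every later value was below 0, from -3.34 at 85 min to -0.46 at 28 min. The differences of -0.50 ± 0.64, -1.17 ± 0.64 and -1.29 ± 0.64 did not pass the threshold (adjusted p = 0.882, 0.322 and 0.29). The 0 min array decided this: without it RNR1 fell by 1.97 at 51 to 90 min (adjusted p = 0.0495) and by 2.09 after 90 min (adjusted p = 0.0461).

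RNR3 had no value at 0 and 85 min of menadione II. Its log2 ratio ran from 1.14 to 1.96 on the 3 early arrays with a value and from -0.05 to 1.43 later, with differences between -0.87 and -0.70. SML1 had none at 7 min and ran from -1.94 at 28 min to 1.33 at 49 min, with differences between -0.44 and 0.09. No test of the 5 genes in the 3 windows was called by limma in menadione II, and none had an unadjusted p under 0.05, against 2.64% of all gene tests called. In the separate windows 0%, 5.04% and 2.89% of genes were called.

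**Figure D2:**
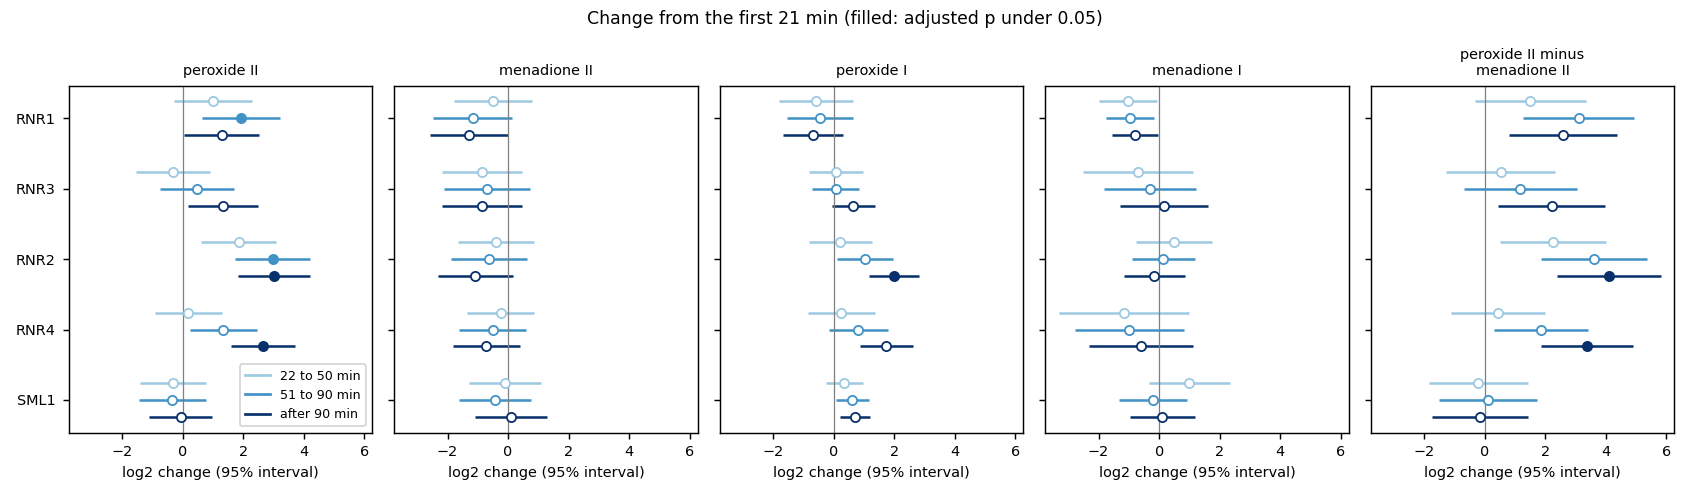
Log2 change from the first 21 min (points, horizontal axis) with its 95% interval (bars) for RNR1, RNR3, RNR2, RNR4 and SML1, in panels for the 4 courses and for the difference between peroxide II and menadione II. Shades stand for 22 to 50, 51 to 90 and after 90 min, and filled points passed an adjusted p of 0.05. RNR2 and RNR4 after 90 min are the filled points of the difference, at 4.09 and 3.38.

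The difference between agents was tested as an interaction, the change in peroxide II minus that in menadione II. After 90 min it was 4.09 ± 0.84 for RNR2 (95% interval 2.38 to 5.81, adjusted p = 0.0291) and 3.38 ± 0.75 for RNR4 (1.86 to 4.90, adjusted p = 0.0291). These 2 of 5 genes passed, and of all 5519 genes 0.906% passed with a higher change in peroxide II. They were 2 of 15 tests over the 3 windows, against 0.411% of all gene tests. The RNR2 call was lost without the 140 min array of peroxide II. The RNR4 call was lost without that array, the 21 min array of peroxide II or the 120 min array of menadione II. Both calls were also lost with the first 15 min as baseline (3.39, adjusted p = 0.0617, and 2.84, adjusted p = 0.0842), with scan day as a covariate, and with sampling time as a block. Over 11 alternatives the adjusted p ran from 0.00421 to 0.138 for RNR2 and from 0.00635 to 0.13 for RNR4.

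The other differences between agents missed the threshold. At 51 to 90 min RNR2 differed by 3.60 ± 0.86 (interval 1.84 to 5.36, adjusted p = 0.0503) and RNR4 by 1.86 ± 0.77 (adjusted p = 0.241), in a window where 0.145% of genes were called. RNR1 differed by 3.10 ± 0.90 at 51 to 90 min (adjusted p = 0.1) and by 2.58 ± 0.88 after 90 min (adjusted p = 0.128). Without the 0 min array of menadione II both passed, at 3.89 (adjusted p = 0.0306) and 3.38 (adjusted p = 0.0264). Those fits kept the 0 min array of peroxide II, where RNR1 was also low (-2.44, beside -2.92 in menadione II). The baselines of the courses then cover unlike times, so these values do not show a difference between agents. RNR3 differed by 2.20 ± 0.86 after 90 min (adjusted p = 0.202). SML1 differed by -0.15 ± 0.78 (interval -1.74 to 1.43, adjusted p = 0.953), which does not show that the agents act alike on it. At 22 to 50 min none of the 5 passed, and neither did any other gene (0%), while RNR2 alone of the 5 had an unadjusted p under 0.05 in limma.

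Time by time, neither course was higher throughout in the small subunit genes up to 28 min. RNR2 was at 0.59, -2.30 and -1.17 at 14, 21 and 28 min of peroxide II, and at -1.34, -0.14 and -0.49 at those times of menadione II. RNR4 was at -0.01, -1.24 and -2.40 in peroxide II and at -1.24, 0.20 and -0.61 in menadione II. Those 3 peroxide II arrays are the ones of the other scan day, so the change of order between 28 and 35 min and a change of scan day cannot be told apart. From 35 min on, both courses shared 9 times, and RNR1, RNR2 and RNR4 were higher in peroxide II at 9 of 9, RNR3 at 7 and SML1 at 5. The RNR2 ratio was higher by 1.90 to 5.60 at these times, with a median of 3.30, that of RNR4 by 1.27 to 4.34 (median 1.86) and that of RNR1 by 0.81 to 1.86 (median 1.30). These are level differences between arrays of different scan days, given with no test. The share of all genes higher at 9 of 9 times was not computed. The counts therefore do not set these genes apart from others.

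In peroxide I, the earlier course at 0.24 mM, RNR2 passed the test after 90 min and RNR4 did not, while both had their highest values late. RNR2 was at 0.62, -0.05 and 0.77 at 0, 14 and 20 min, at -0.20, 0.72 and 1.50 at 30, 40 and 49 min, and at 1.54, 0.33, 1.77, 1.75 and 2.05 at 55, 63, 70, 77 and 85 min. On the 10 arrays after 90 min its lowest value was 1.32 at 275 min and its highest 3.30 at 120 min, with a median of 2.59, all above the early values. RNR2 rose by 1.99 ± 0.40 after 90 min (10 arrays against 3 times, adjusted p = 0.0492), ranking 8 of 5551 genes, and the differences before were 0.22 ± 0.49 and 1.04 ± 0.44 (adjusted p = 0.881 and 0.121). The call after 90 min stood at the threshold: it held in 7 of 23 fits that left out 1 array and in 8 of 11 alternatives, with adjusted p from 0.0199 to 0.221 and from 0.0036 to 0.0933, the last with the first 15 min as baseline (2.15).

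RNR4 in peroxide I was at 0.21, -0.26 and 0.15 in the first 21 min, at 0.00, 0.01 and 0.85 at 30 to 49 min, and at 0.73, -0.22, 0.52, 1.57 and 1.61 at 55 to 85 min. After 90 min its lowest value was 0.47 at 170 min and its highest 2.59 at 155 min, with a median of 2.07, above all early ones. The difference, 1.74 ± 0.43, did not pass (adjusted p = 0.106), although RNR4 ranked 11 of 5551 genes by rise. Every array after 90 min lay above every early one for RNR2 and RNR4, 2 of the 5 genes, and for 1.19% of all genes.

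RNR1 passed no test in peroxide I. It ran from -0.24 to 0.63 in the first 21 min and from -3.23 at 170 min to 0.56 at 140 min after 90 min, with differences of -0.59, -0.46 and -0.68 (adjusted p = 0.653 to 0.817). RNR3 differed by 0.65 ± 0.34 after 90 min (adjusted p = 0.704) and by under 0.10 before. SML1 was at -0.27, -0.83 and -0.19 at 0, 14 and 20 min and between -0.18 and 0.46 at 55 to 85 min, just above all early values, as were 11.0% of genes. Its differences of 0.36, 0.62 and 0.71 did not pass (adjusted p = 0.625, 0.129 and 0.391). Of the 5 genes 1, RNR2, was called higher after 90 min, where 0.0721% of genes were (1 of 15 tests over the 3 windows, against 5.38% of all gene tests), and none at 22 to 50 or 51 to 90 min, where 0.775% and 15.3% of genes were called.

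**Figure D3:**
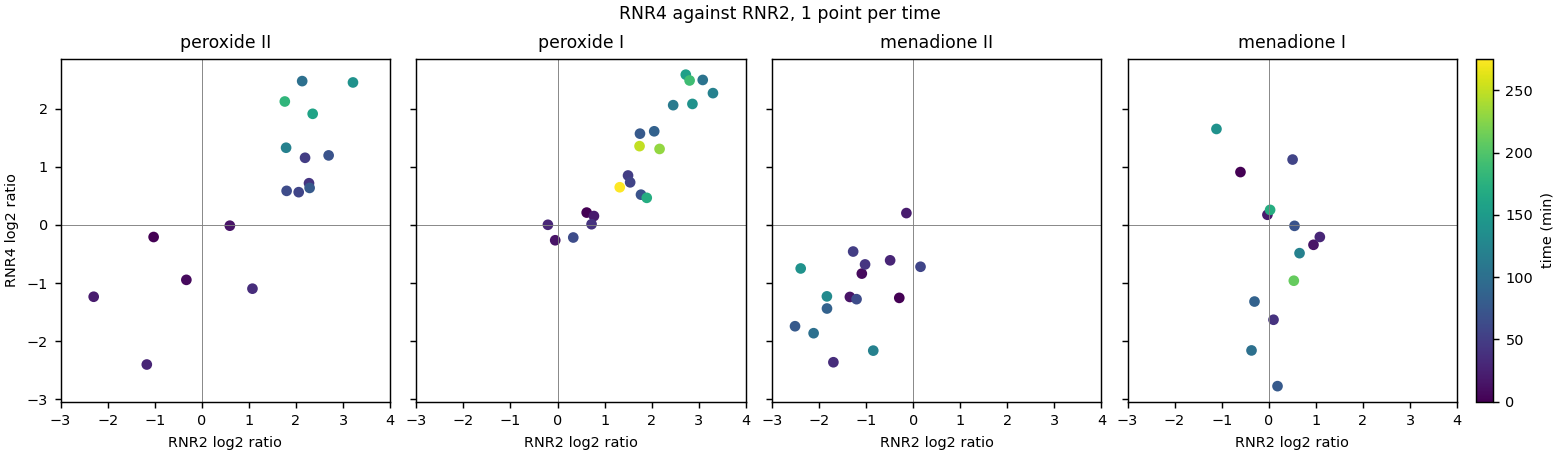
RNR4 log2 ratio (vertical axis) against RNR2 log2 ratio (horizontal axis), 1 point per time, coloured by time in min, in a panel per course. The points rise together in both peroxide courses (Pearson r = 0.812 and 0.928) and spread in menadione II (0.477) and menadione I (-0.178). The menadione I points are averages of 2 probes per gene that agreed poorly.

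RNR2 and RNR4 had similar courses over time under peroxide. Their Pearson correlation over times was 0.928 in peroxide I (21 times) and 0.812 in peroxide II (17 times), against 0.477 in menadione II (16 times) and -0.178 in menadione I (14 times). The menadione I value rests on averages of 2 probes per gene that agreed poorly (r = 0.209 for RNR2 and 0.401 for RNR4). That limits what it can show. Times of a course share 1 culture, 1 reference and a trend, so these correlations over times are descriptions. Those of peroxide II also include the 3 arrays of the other scan day. There RNR1, RNR2 and RNR4 had medians of -2.16, -1.17 and -1.24, against -0.12, 2.09 and 0.94 on the other 14. RNR1 followed RNR2 in peroxide II (0.788) but not in peroxide I (-0.08). SML1 followed RNR4 and RNR2 in peroxide I (0.845 and 0.761) but not in peroxide II (-0.11 and -0.23). RNR3 correlated with RNR2 at 0.168 and 0.375 in the peroxide courses.

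In menadione I the 2 probes of each RNR gene disagreed, so that the gene averages are weak measurements. Their correlation over arrays was 0.537 for RNR1, 0.209 for RNR2, -0.08 for RNR3 and 0.401 for RNR4. Over the 1862 genes with 2 probes and enough values, the median was 0.218 and the quartiles -0.01 and 0.45, so probe pairs agreed poorly for most genes of these arrays. The highest RNR3 average, 3.66 at 100 min, came from 1 probe alone, and the lowest RNR4 average, -2.77 at 77 min, likewise. At 140 min the RNR4 probes read 0.02 and 3.29.

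RNR1, with the closest probe pair, had averages of 0.56, 1.51 and 0.71 at 0, 14 and 20 min of menadione I, and 0.08 and -0.28 at 30 and 40 min. It was at 0.05, -0.24, 0.38 and -0.29 at 55 to 85 min, and between -0.21 and 0.59 on the 5 arrays after 90 min. All arrays of 22 to 50 min and of 51 to 90 min lay below the early ones, as did 9.11% and 8.07% of all genes. The differences of -1.03 ± 0.45, -0.95 ± 0.38 and -0.80 ± 0.36 did not pass (adjusted p = 0.9995, 0.237 and 0.332). Both probes were lower in all 3 windows, by -0.96 and -1.10 at 22 to 50 min and by -0.73 and -0.88 after 90 min.

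RNR2 in menadione I ran from -0.60 to 0.95 in the first 21 min and from -1.11 to 1.08 later, with differences of 0.49, 0.13 and -0.16 (adjusted p = 0.92 to 0.9995). RNR4 and SML1 differed by -0.59 and 0.10 after 90 min (adjusted p = 0.808 and 0.952). None of the 15 tests of the 5 genes was called by limma in menadione I, 3 had an unadjusted p under 0.05, all of RNR1, and 1.08% of all gene tests were called.

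**Figure D4:**
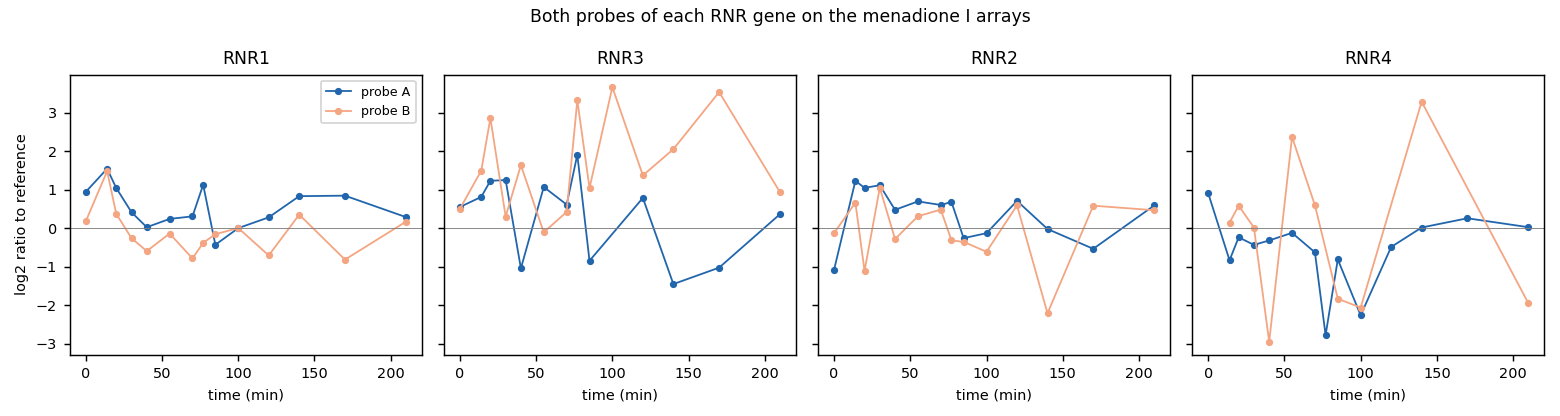
Log2 ratio (vertical axis) of the 2 probes of RNR1, RNR3, RNR2 and RNR4 on the menadione I arrays against time in min (horizontal axis). The RNR1 probes ran together most closely (r = 0.537), and the RNR3 probes parted late, with 1 probe alone at 3.66 at 100 min.

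Cycle genes were set beside RNR1, since it is known as a G1/S gene. The median log2 ratio of the G1/S list was highest at 14 min in menadione I (1.11), menadione II (0.85) and peroxide II (1.10), and at 20 min in peroxide I (0.60). RNR1 was at its highest at 14 min in menadione I, menadione II and peroxide I, but at 63 min in peroxide II. In peroxide I the repeated 20 min arrays, at 0.97 and -0.67, were averaged, and the first lay above the 14 min value of 0.63. The correlation of RNR1 with the G1/S median over times was 0.805 in menadione I and 0.738 in menadione II, against 0.167 in peroxide I and -0.16 in peroxide II. The peroxide I value includes the 170 min array, where RNR1 was at -3.23 and the next lowest value after 90 min was -1.24. How far this array sets the correlation was not tested. RNR1 at 14 min of peroxide II, -0.88, is 1 of the 3 arrays of the other scan day, and the part of the scan day in this was not tested.

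Regulators of the reductase mRNAs and protein were counted as a list of 11 genes, all measured. In peroxide II none of the 11 was called in any window, where 3.94%, 14.0% and 0.634% of all genes were called in either direction, and their median difference at 51 to 90 min was 0.02, beside 0.05 for all genes. In menadione II 1 of 11 was called, in the window where 5.04% of genes were: DUN1, the kinase that relays the checkpoint to Rfx1 and Sml1, fell by 2.04 ± 0.49 at 51 to 90 min (adjusted p = 0.0124). DUN1 differed by 0.82 ± 0.49 in the same window of peroxide II (adjusted p = 0.278), and the difference between agents, 2.85 ± 0.69, missed the threshold (adjusted p = 0.0503). TUP1, for a corepressor, differed by -1.20 ± 0.41 in that window of menadione II (adjusted p = 0.0806), and DIF1, which brings the small subunit into the nucleus, by 2.02 ± 0.67 between agents after 90 min (adjusted p = 0.12). RFX1 rose by 0.83 ± 0.25 in peroxide I at 51 to 90 min (adjusted p = 0.0259), the 1 regulator of 11 called in that course, in a window where 15.3% of genes were called. None was called in menadione I.

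**Figure D5:**
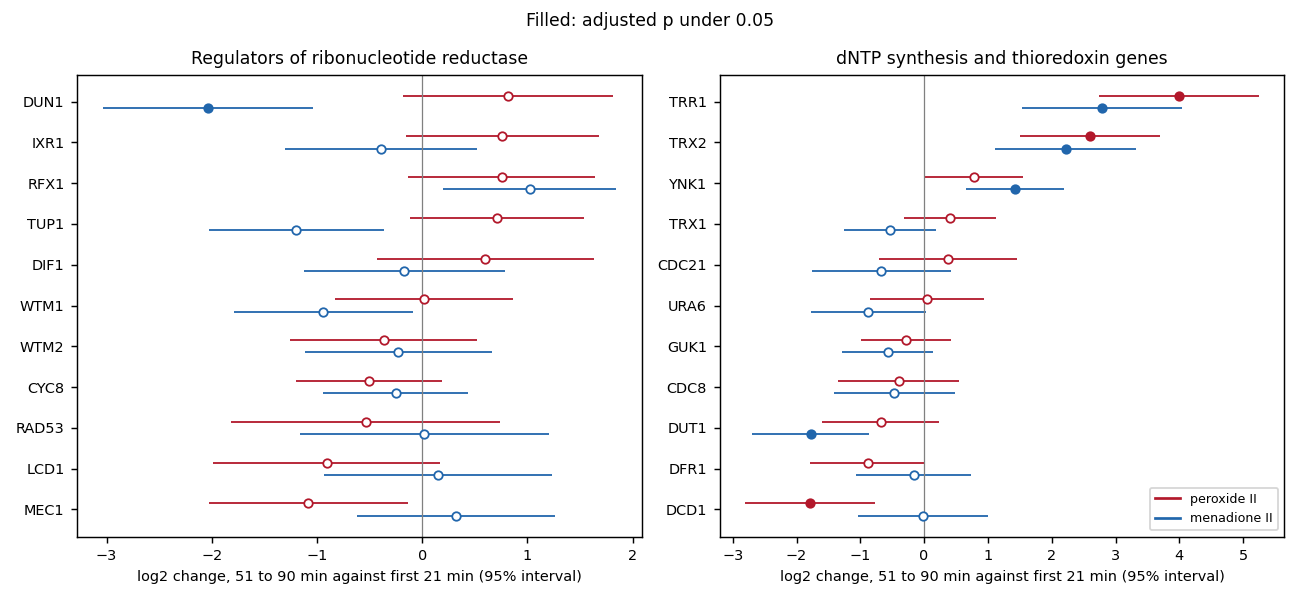
Log2 change at 51 to 90 min against the first 21 min with 95% intervals (horizontal axis) for regulators of ribonucleotide reductase and for genes of deoxyribonucleotide supply, in peroxide II (red) and menadione II (blue); filled points passed an adjusted p of 0.05. TRR1 and TRX2 were higher in both courses, and DUN1 was lower in menadione II, by -2.04.

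Among 11 genes of deoxyribonucleotide supply, TRR1 and TRX2 belong to the thioredoxin system, which returns electrons to the reductase. TRR1 rose in all 4 courses, and TRX2 in both peroxide courses and menadione II. TRR1, for thioredoxin reductase, rose at 51 to 90 min by 3.99 ± 0.62 in peroxide II (adjusted p = 0.000113), 2.78 ± 0.62 in menadione II, 3.24 ± 0.71 in peroxide I and 3.00 ± 0.57 in menadione I, the highest adjusted p being 0.0116. TRX2, for a thioredoxin, rose by 2.60 ± 0.54 in peroxide II, 2.22 ± 0.54 in menadione II and 3.64 ± 0.89 in peroxide I, the highest adjusted p being 0.0128. In menadione I the TRX2 average was called at 51 to 90 min (2.12 ± 0.38) and after 90 min (2.37 ± 0.37, adjusted p = 0.00175), but its 2 probes disagreed. The probe with more values gave 4.12 at 51 to 90 min (adjusted p = 5.18e-05) and the other 0.15 (adjusted p = 0.941), and after 90 min they gave 4.87 and -0.13. For TRR1 in menadione I, agreement between probes is not reported here. TRX1, for the other cytosolic thioredoxin, was not called at 51 to 90 min in any course, with differences of 0.41 in peroxide II, -0.54 in menadione II, 0.35 in peroxide I and 0.33 in menadione I (adjusted p = 0.424 to 0.775). The agents did not differ detectably for either gene at 51 to 90 min (TRR1 1.21 ± 0.87, adjusted p = 0.551, and TRX2 0.39 ± 0.76, adjusted p = 0.853). After 90 min TRX2 was the only gene of the list called in peroxide II (2.18 ± 0.51, adjusted p = 0.0349).

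Genes of nucleotide metabolism in that list went both ways. In menadione II at 51 to 90 min DUT1, whose enzyme removes dUTP, fell by 1.77 ± 0.45 (adjusted p = 0.0176), and YNK1, for nucleoside diphosphate kinase, rose by 1.42 ± 0.38 (adjusted p = 0.023) and again by 1.39 ± 0.38 after 90 min (adjusted p = 0.0392). In peroxide II DCD1, for dCMP deaminase, fell by 1.78 ± 0.50 at 51 to 90 min (adjusted p = 0.0161), and in peroxide I it fell by 1.08 ± 0.27 (adjusted p = 0.00761), with GUK1, for guanylate kinase, and DUT1 down beside it. No gene of this list passed the test of the difference between agents in any window. Few of all genes did (0%, 0.145% and 1.09% in the 3 windows), so this does not show that the agents act alike on the list. In the 3 windows of peroxide II 2, 3 and 1 of 11 genes were called, against 3.94%, 14.0% and 0.634% of all genes. In those of menadione II 0, 4 and 1 were called, against 0%, 5.04% and 2.89%.

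Of 4 genes for assembly of the small subunit's iron cofactor, none was called in the second series, where the share of all genes called was highest at 51 to 90 min (14.0% in peroxide II and 5.04% in menadione II). GRX3, for a glutaredoxin that delivers iron, differed by 1.16 ± 0.41 at 51 to 90 min of peroxide II (adjusted p = 0.0579), and TAH18, for a reductase of that pathway, by -1.32 ± 0.70 (adjusted p = 0.213). Of 9 measured genes known for induction by DNA damage, 1 was called in peroxide II, in the window where 14.0% of genes were: DDI2 rose by 3.04 ± 0.67 at 51 to 90 min (adjusted p = 0.00285), and it has a near-identical copy whose RNA the probe may also bind. None was called in menadione II, where DDI2 differed by 1.95 ± 0.67 in that window (adjusted p = 0.0822). In peroxide I the DNA repair glycosylase gene MAG1 rose by 0.98 ± 0.28 at 51 to 90 min (adjusted p = 0.0173), where 15.3% of genes were called.

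Likeness was measured as Pearson's r over the 33 arrays of the second series, with each course centred on its mean. The scan days within peroxide II were not adjusted for. RNR2 and RNR4 correlated at 0.749, RNR4 being the fourth nearest of 5538 genes to RNR2 and RNR2 the nearest of all to RNR4. RNR1 correlated with RNR2 at 0.578 and with RNR4 at 0.425. Among genes outside the 5, RNR2 was nearest to RIM101, for a transcriptional repressor (r = 0.789), YJL163C (0.78) and the proteasome ATPase gene RPT2 (0.763). RNR4 was nearest to AIM24 (0.693), the chaperonin gene CCT8 (0.679) and YJL163C (0.678). RNR1 was nearest to MIT1 (0.699), FRD1 and URH1, RNR3 to the mitochondrial RNA polymerase gene RPO41 (0.686), CSM4 and LYS4, and SML1 to MNT4 (0.67), KAR4 and IAI11. In the first series most of these were weak: RIM101 with RNR2 was at 0.227 in peroxide I and 0.02 in menadione I. AIM24 with RNR4 (0.514 in peroxide I), and RPO41 (0.712) and CSM4 (0.531) with RNR3 in menadione I, were the values above 0.5. None of these held in the other course: AIM24 was at -0.197 in menadione I, and RPO41 and CSM4 at -0.424 and -0.02 in peroxide I. The RNR3 values of menadione I are also averages of probes that disagreed.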

How the data were processed

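The values are log ratios as deposited by the authors in 3 tables, taken as log2; their base, spot filter, background correction and normalization are not given in the sources used here. The direction was taken from the dyes in the labels, with mating and histone genes at 0 min beside it, and kept although 1 pair of peroxide I arrays, at 20 and 63 min, correlated at -0.303. Probes were named through platform annotation (9565, 6625 and 6570 probes of menadione I, peroxide I and the second series with 1 gene, 3491, 3359 and 8406 not listed) and averaged per gene, each array was centred on its gene median, and repeated arrays at 20 and 63 min were averaged. The centring moved arrays by their medians of -0.55 to 0.29. Per array, 1.2% to 26.9% of spots had no value, and the number of arrays limits the precision.

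limma 3.58.1 under R 4.3.3 fitted 1 mean per course and window (edges at 21, 50 and 90 min), the second series in 1 fit and the others each alone. Genes needed values in 75% of arrays and in 2 arrays of both windows. Benjamini-Hochberg adjustment ran over all genes tested in a comparison. The method was tested on simulated data with independent noise on each array. These data had no trend over time and no scan-day shift, so that test does not bear on those limits.

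The members and lists were chosen with earlier results of these data known. Named beside the members were list genes past the threshold in the second series (at most 4 per list and comparison), otherwise the 2 with the largest change, and the 3 genes most correlated with each member. RFX1, MAG1, TRX1 and the peroxide I values of GUK1 and DUT1 were added after their values were seen. Alternatives were the centring, scaling, filter, baseline, windows fitted alone, array weights, probe choice, scan day, time as a block, repeated arrays and leaving out each array.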

Additional observations from a re-analysis of the deposited data

Results flagged for a closer look

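Among 57 groups of 4 to 10 arrays per gene and window, 7 held 1 array far from the others. The cut-off used is passed by about 1 in 20 groups of independent draws. Successive times of 1 culture are not such draws, so the 7 cannot be set against that rate. For RNR1 these were the 28 min (-0.47) and 85 min (-3.34) arrays of menadione II and the 170 min array of peroxide I (-3.23). For RNR4 they were the 35 min array of menadione II (-2.36) and the 70 min array of peroxide II (1.20). For RNR3 they were the 77 min (2.62) and 100 min (3.66) arrays of menadione I, the latter from 1 probe.

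The change after 90 min differed between peroxide II and menadione II, in an interaction test, by 4.09 for RNR2 and by 3.38 for RNR4 (limma, adjusted p = 0.0291 for both).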

How the results depend on the processing

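Of 15 tests of the 5 genes per comparison, 4 were called in peroxide II, 2 in the difference between agents, 1 in peroxide I and none in either menadione course. Of all gene tests, 6.20%, 0.411% and 5.38% were called in the first 3 of these, 2.64% in menadione II and 1.08% in menadione I. With the first 15 min as baseline the counts were 2 in peroxide II, 0 in the difference and 0 in peroxide I. With scan day as a covariate they were 1 in peroxide II and 0 in the difference. A setting that kept only the 3 arrays of the later scan day from peroxide II was also chosen after seeing the data. Its later arm is 1 array (28 min against 14 and 21 min), which says nothing about stability. The difference gave 0 with sampling time as a block. Peroxide I gave 4 with array weights and 0 with the first arrays alone. Leaving out 1 array gave 3 to 6 in peroxide II, 0 to 4 in the difference, 0 to 1 in peroxide I and 0 to 2 in menadione II, the 2 coming without 0 min. The difference gave 0 without 140 min, 1 without 21 min (all of peroxide II) or without 120 min of menadione II, and 4 without 28 min of peroxide II or 0 min of menadione II. The other alternatives kept these counts within 1.5 times, and menadione I gave 0 throughout. TRX2 in menadione I after 90 min reversed to -0.134 with the probe of fewest values, so its rise there rests on the other probe. The cause of the other changes was not tested. No paired analysis was possible because the arrays carry no replicate numbers; blocking on shared sampling time, the pairing that could be fitted, gave the difference after 90 min as 4.21 for RNR2 and 3.5 for RNR4 (adjusted p = 0.138 and 0.13). Signal over background was not analysed here.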
